A study of Mus musculus with 6 samples.

Results

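The matricellular genes examined here were Thbs1, Thbs2, Thbs3, Tnc, Postn, Sparc, Nov, Wisp1, Wisp2 and Fn1, chosen by name as the rows of the expression table whose symbol equals one of these. They made up 10 of the 18112 genes in the table and 10 of the 12565 genes that were expressed highly enough to be tested. Current annotation names Nov, Wisp1 and Wisp2 as Ccn3, Ccn4 and Ccn5.

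Matricellular proteins are secreted into the extracellular matrix but serve mainly as signals to cells rather than as scaffold: they bind integrins and other receptors, collagens and growth factors, and alter adhesion, migration and growth factor release. In the artery wall they are scarce in the quiescent media and are made by vascular smooth muscle cells (VSMCs) after injury and in culture. Fibronectin, the product of Fn1, is a structural adhesive glycoprotein that many of them bind.

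RNA was sequenced from primary aortic VSMCs of C57BL/6 mice, with 3 Smyd2 fl/fl and 3 Smyd2 SMC-/- libraries, to compare cells that carry the methyltransferase gene Smyd2 with cells that lack it. Smyd2 fl/fl mice carry loxP sites around exon 2 of Smyd2 on both alleles, and littermates of this genotype were the controls. Whether they carried Cre is not stated. Smyd2 SMC-/- mice carry the same floxed alleles together with a Cre transgene driven by the SM22α (Tagln) promoter, so that deletion is limited to cells in which that promoter has been active, which include some outside smooth muscle. The mice were 8 to 10 weeks old, and no treatment is named for either group. The sample labels place the cells at passage 6 in medium with 10% serum, whereas the methods of the study place them at passage 4 after overnight starvation, and the deposited values do not tell which applies. The study describes its data in general as coming from 3 or more independent experiments and gives n = 3 for each group, but does not say whether the 3 libraries of a group came from separate animals or cultures, so p-values measure the spread between these libraries, which may be technical.

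Expression was given as FPKM, the fragments of a gene scaled to its transcript length and to the library's total, so that levels can be compared between genes. From the steps between low FPKM values, the depth of the Smyd2 fl/fl libraries was put at about 18450000, 19950000 and 19800000 fragments, and that of the Smyd2 SMC-/- libraries at about 17300000, 19450000 and 19200000. For a 2000-base transcript, a single fragment then stands for 0.0260 to 0.030 FPKM. Values of a group are listed in the order of replicates 1, 2 and 3 throughout. Differences are given as log2(FPKM + 1) in Smyd2 SMC-/- minus Smyd2 fl/fl with the standard error from limma, and this scale understates changes of genes with low FPKM. A gene was called at an adjusted p under 0.05 over all tested genes. An exact permutation test of 3 against 3 libraries cannot go below p = 0.1 and was not used for single genes. Bulk RNA cannot tell fewer cells of a type from less RNA per cell.

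Smyd2 itself was measured at 7.87, 3.10 and 3.0 FPKM in the Smyd2 fl/fl libraries, against 1.67, 0.40 and 0.80 FPKM in the Smyd2 SMC-/- libraries. The groups did not overlap, and the lower values were those of Smyd2 SMC-/-, as labelled. The difference was −1.48 (standard error 0.389, limma's adjusted p = 0.105), and a block for the replicate number gave 0.0189, within a range of 0.00126 to 0.305 over the alternatives. The RNA that remained may lack exon 2, which gene totals do not show. Smyd2 also shares 814 exonic bases, 29.96% of its own, with the antisense gene Gm37422, which was not analysed here.

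Replicate 1 stood apart from replicates 2 and 3 in both groups. It lay at least 2-fold from the mean of replicates 2 and 3 for 9.12% of all tested genes in Smyd2 fl/fl and for 10.5% in Smyd2 SMC-/-, on the log2(FPKM + 1) scale. Spearman's rho across genes was 0.992 between Smyd2 fl/fl replicates 2 and 3 and 0.989 between Smyd2 SMC-/- replicates 2 and 3, while replicate 1 had between 0.920 and 0.934 with the others of its group. Genes are not independent replicates, and these values only describe the libraries. Results of the 10 genes are therefore given for all libraries and for replicates 2 and 3 alone, where each group holds 2 libraries.

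Several matricellular genes were among those that differed in replicate 1. It lay at least 2-fold from the mean of the others for 5 of the 10 genes in Smyd2 fl/fl (Thbs2, Thbs3, Nov, Wisp2 and Fn1) and for 6 of the 10 in Smyd2 SMC-/- (Thbs2, Thbs3, Tnc, Postn, Wisp2 and Fn1), beside the 9.12% and 10.5% given for all genes. For 4 genes this held in both groups, and in 3 of these the direction was the same. Fn1 was lower in replicate 1 by a log2 difference of −1.89 for Smyd2 fl/fl and −1.77 for Smyd2 SMC-/-, and Wisp2 by −1.99 and −1.59. Thbs3 was higher in replicate 1 by 1.76 and 3.50. Thbs2 differed in sign, with −1.98 for Smyd2 fl/fl and 1.11 for Smyd2 SMC-/-. Nov in Smyd2 fl/fl had the most extreme value of the 10 genes, −4.23, with −0.61 in Smyd2 SMC-/-. What set replicate 1 apart was not tested.

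**Figure D1:**
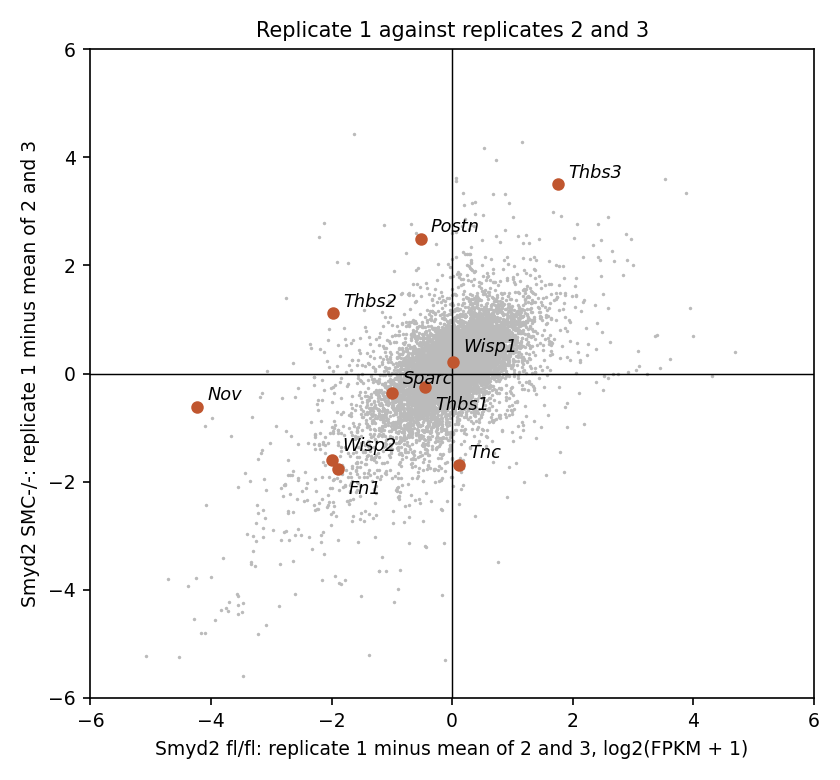
Each point is a gene, placed by how far replicate 1 lay from the mean of replicates 2 and 3 on the log2(FPKM + 1) scale in Smyd2 fl/fl (x axis) and in Smyd2 SMC-/- (y axis). Grey points are tested genes, of which 6 lie outside the axes, and orange points are the 10 matricellular genes: Fn1 and Wisp2 were low in replicate 1 of both groups, Thbs3 was high in both, and Wisp1 lay near 0 in both.

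With all libraries, none of the 10 matricellular genes was called lower and none was called higher in Smyd2 SMC-/- (0 and 0 of 10), and 0 had an unadjusted p under 0.05 in limma. Of all tested genes, 152 (1.21%) were called lower and 154 (1.23%) higher. After each library was rescaled to TPM the split over all genes was 99 lower and 247 higher, and the median of all genes moved by 0.11, so the differences below are relative to the deposited FPKM scale. The 10 genes had a median difference of 0.24, with 6 above 0 and 4 below, against a median of −0.018 for all tested genes. In replicates 2 and 3 alone the median of the 10 genes was 0.07, against −0.059 for all tested genes. With the replicate block, 0 were called lower and 1 higher (Fn1), beside 5.72% lower and 4.72% higher of all genes. In replicates 2 and 3 alone, 2 were called lower (Thbs3 and Postn) and 1 higher (Fn1), beside 17.2% lower and 11.9% higher of all genes. Read against these shares, the counts give no result about the 10 genes as a group.

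Overlap of the groups was counted as well. For 1 of the 10 genes, Thbs1, every Smyd2 SMC-/- library lay above every Smyd2 fl/fl library, and for 0 every one lay below, where 13.1% of all tested genes were higher and 15.0% lower in this way. Within same-numbered pairs of libraries, 3 of the 10 genes (Thbs1, Nov and Fn1) were higher in Smyd2 SMC-/- in all 3 pairs and 0 were lower in all 3, where 25.8% of all genes were higher and 29.3% lower in all pairs. Beyond replicate 1, the match of libraries within pairs rests on the labels alone.

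**Figure D2:**
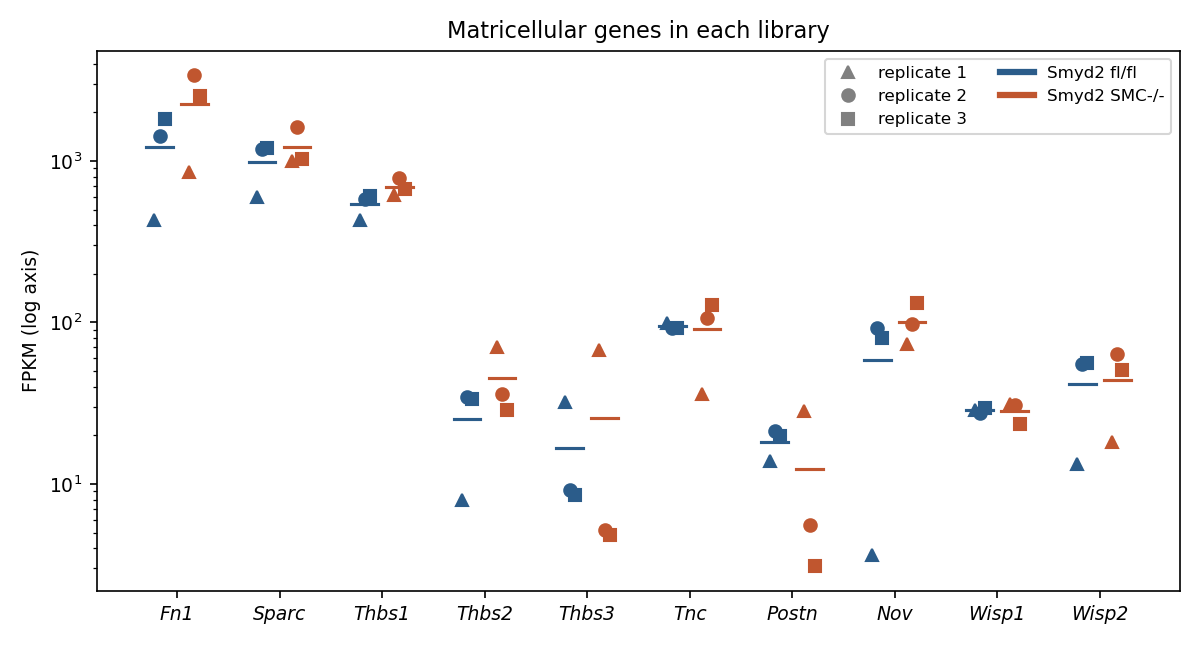
FPKM of the 10 matricellular genes in each library on a log axis, in Smyd2 fl/fl (blue) and Smyd2 SMC-/- (orange), with horizontal lines at the group means and a symbol for each replicate number. Fn1, Sparc and Thbs1 were the most abundant in both groups, and the triangles of replicate 1 lie at least 2-fold from the mean of replicates 2 and 3, on the log2(FPKM + 1) scale, in both groups for Thbs2, Thbs3, Wisp2 and Fn1, in Smyd2 fl/fl only for Nov, and in Smyd2 SMC-/- only for Tnc and Postn.

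Together the 10 genes took 0.40%, 0.778% and 0.931% of the summed FPKM in the Smyd2 fl/fl libraries, against 0.716%, 1.53% and 1.19% in the Smyd2 SMC-/- libraries. The share was higher in the Smyd2 SMC-/- library of each pair, and the groups overlapped. Fn1 alone gave 26.0%, 40.4% and 46.0% of the summed FPKM of these genes in the Smyd2 fl/fl libraries, against 30.6%, 55.3% and 55.1% in the Smyd2 SMC-/- libraries. By mean FPKM in Smyd2 fl/fl the order was Fn1, Sparc, Thbs1, Tnc, Nov, Wisp2, Wisp1, Thbs2, Postn and Thbs3. Neighbours in this order had overlapping ranges over the 3 libraries, except that Thbs1 lay wholly above Tnc and Tnc wholly above Nov. In Smyd2 SMC-/- the order was Fn1, Sparc, Thbs1, Nov, Tnc, Thbs2, Wisp2, Wisp1, Thbs3 and Postn, and only Sparc against Thbs1 and Thbs1 against Nov did not overlap.

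Fn1 (NCBI Gene 14268, chromosome 1 of GRCm38 from 71585520 to 71653200, minus strand) encodes fibronectin, which links cells to collagen through integrins. It was measured at 431, 1418 and 1809 FPKM in the Smyd2 fl/fl libraries, against 858, 3392 and 2540.4 FPKM in the Smyd2 SMC-/- libraries. Replicate 1 was the lowest library of each group, so the groups overlapped, but within each pair the Smyd2 SMC-/- library was the higher, by 1.99-fold, 2.39-fold and 1.40-fold. The group means were 1219.6 ± 710.1 FPKM for Smyd2 fl/fl and 2263 ± 1289 FPKM for Smyd2 SMC-/- (SD, n = 3 each). The difference was 0.91 with a standard error of 0.693 (limma's adjusted p = 0.532), and became 0.28 without Smyd2 fl/fl replicate 1, 1.5 without Smyd2 SMC-/- replicate 1 and 0.51 without Smyd2 SMC-/- replicate 2. The replicate block brought the standard error to 0.172 and the adjusted p to 0.0411, and over all alternatives the adjusted p ranged from 0.0131 to 0.83. Replicates 2 and 3 alone gave a difference of 0.87 (limma's adjusted p = 0.0142). With the block, the call was lost without both libraries of pair 2 (0.74, adjusted p = 0.123 in limma) and without both of pair 3 (1.12, adjusted p = 0.0927), fits chosen after the data were seen. The table lists 15 transcripts for Fn1, and gene totals do not separate the forms with and without the alternatively spliced extra domains.

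Sparc (NCBI Gene 20692, chromosome 11 from 55394500 to 55423183, minus strand) encodes osteonectin, a collagen-binding glycoprotein. Its level was 596, 1183 and 1197 FPKM in the Smyd2 fl/fl libraries, against 1006, 1611 and 1027 FPKM in the Smyd2 SMC-/- libraries. The groups overlapped, the Smyd2 SMC-/- library was higher in pairs 1 and 2 and lower in pair 3, and the difference of 0.33 (standard error 0.328, limma's adjusted p = 0.648) was no larger than its error. In replicates 2 and 3 alone it was 0.11 (adjusted p = 0.724), and after quantile normalization 0.72.

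The thrombospondins are calcium-binding glycoproteins. Thbs1 and Thbs2 form trimers and block angiogenesis, and Thbs1 also binds Cd47 and releases TGF-beta from its latent complex, while Thbs3 belongs to the pentameric subgroup. Thbs1 (NCBI Gene 21825, chromosome 2 from 118111876 to 118127133, plus strand) was measured at 430.4, 578 and 605 FPKM in the Smyd2 fl/fl libraries, against 613, 779 and 675 FPKM in the Smyd2 SMC-/- libraries. Its groups did not overlap, with means of 538 ± 93.8 and 689 ± 83.7 FPKM (SD, n = 3 each), and pair by pair it was 1.42-fold, 1.35-fold and 1.12-fold higher. It had the smallest p of the 10 genes, 0.0804 before adjustment, with a difference of 0.37 (standard error 0.178, limma's adjusted p = 0.307), or 0.29 in replicates 2 and 3 alone (adjusted p = 0.136). It was 0.21 without Smyd2 fl/fl replicate 1 and 0.63 after quantile normalization (adjusted p = 0.0539).

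Thbs2 (NCBI Gene 21826, chromosome 17 from 14665500 to 14694235, minus strand) was measured at 7.92, 34.5 and 33.8 FPKM in the Smyd2 fl/fl libraries, against 70.8, 35.9 and 28.9 FPKM in the Smyd2 SMC-/- libraries. The libraries at both extremes were replicate 1, and replicates 2 and 3 of the groups overlapped. The pair of replicate 1 differed 8.95-fold, while pairs 2 and 3 had ratios of 1.04 and 0.855. By the estimated depth, Thbs2 in Smyd2 fl/fl replicate 1 rested on about 850 fragments, and in the other libraries on about 3229 to 7134. The difference was 0.95 (standard error 0.603, limma's adjusted p = 0.445), or 0.29 without Smyd2 fl/fl replicate 1 and 0.58 without Smyd2 SMC-/- replicate 1, and in replicates 2 and 3 alone it was −0.08 (adjusted p = 0.651).

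Thbs3 (NCBI Gene 21827, chromosome 3 from 89215180 to 89226837, plus strand) was measured at 32.4, 9.19 and 8.54 FPKM in the Smyd2 fl/fl libraries, against 67.1, 5.19 and 4.85 FPKM in the Smyd2 SMC-/- libraries. Replicate 1 was the highest library of each group. The ratio of Smyd2 SMC-/- to Smyd2 fl/fl was 2.07 in pair 1 but 0.565 and 0.568 in pairs 2 and 3. With all libraries the difference was −0.13 with a standard error of 1.02 (limma's adjusted p = 0.963). Replicates 2 and 3 alone gave −0.71 (standard error 0.116, limma's adjusted p = 0.00424), and over all alternatives the adjusted p ranged from 0.00424 to 0.986. Thbs3 shares 318 exonic bases, 6.59% of its own, with Mtx1 on the opposite strand, and use of strand in the authors' counting is not given in the sources used here. Mtx1 varied little, from 13.8 to 18.0 FPKM over the 6 libraries. Exons of Thbs1, Tnc and Fn1 share 208, 176 and 292 bases with noncoding genes on the opposite strand.

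Tnc (NCBI Gene 21923, chromosome 4 from 63959785 to 64047015, minus strand) encodes tenascin C, a glycoprotein of remodelling matrix that weakens adhesion to fibronectin. It was measured at 99.5, 92.2 and 92.3 FPKM in the Smyd2 fl/fl libraries, against 35.8, 107 and 129 FPKM in the Smyd2 SMC-/- libraries. The Smyd2 fl/fl libraries were close together, and Smyd2 SMC-/- had its replicate 1 below all of them and its replicates 2 and 3 above all of them. The difference was −0.25 (standard error 0.454, limma's adjusted p = 0.814), and in replicates 2 and 3 alone it was 0.34 (adjusted p = 0.07).

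Postn (NCBI Gene 50706, chromosome 3 from 54361109 to 54391037, plus strand) encodes periostin, a protein that binds collagen and tenascin C and assists collagen crosslinking. It was measured at 13.9, 21.2 and 19.8 FPKM in the Smyd2 fl/fl libraries, against 28.4, 5.61 and 3.10 FPKM in the Smyd2 SMC-/- libraries. Smyd2 SMC-/- replicate 1 was the highest of the 6 libraries and replicates 2 and 3 of that group were the lowest. The ratios in pairs 1, 2 and 3 were 2.04, 0.265 and 0.157. With all libraries the difference was −1.04 (standard error 0.691, limma's adjusted p = 0.470). In replicates 2 and 3 alone it was −2.04 (standard error 0.219, limma's adjusted p = 0.00134), and without Smyd2 SMC-/- replicate 1 only it was −1.87 (adjusted p = 0.0265), against −0.45 without Smyd2 SMC-/- replicate 3. Over all alternatives the adjusted p ranged from 0.00134 to 0.837.

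Thbs3 and Postn were thus both higher in pair 1 and lower in pairs 2 and 3, and their promoter windows are shown for that reason, with that of Thbs2, which was higher in pair 1 but not lower in pair 2. The windows are from RefSeq on GRCm38.p6, run from 250 bases before to 50 bases after a start site and read 5′ to 3′ on the strand of the gene. Of the 10 genes, 5 had an entry (Thbs2, Thbs3, Tnc, Postn and Sparc), and Thbs1, Nov, Wisp1, Wisp2 and Fn1 had none. The Postn window is chr3:54360857-54361156 on the plus strand and spans the annotated start of the gene, that of Thbs3 is chr3:89214930-89215229 on the plus strand, and that of Thbs2 is chr17:14694213-14694512 on the minus strand. Capitals mark matches to the motifs searched on both strands.
Postn: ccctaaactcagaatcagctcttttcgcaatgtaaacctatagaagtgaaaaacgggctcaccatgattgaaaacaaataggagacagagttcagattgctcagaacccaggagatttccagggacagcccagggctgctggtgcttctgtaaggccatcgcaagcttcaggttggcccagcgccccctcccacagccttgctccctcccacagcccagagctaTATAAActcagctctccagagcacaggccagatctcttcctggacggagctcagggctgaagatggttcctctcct
Thbs3: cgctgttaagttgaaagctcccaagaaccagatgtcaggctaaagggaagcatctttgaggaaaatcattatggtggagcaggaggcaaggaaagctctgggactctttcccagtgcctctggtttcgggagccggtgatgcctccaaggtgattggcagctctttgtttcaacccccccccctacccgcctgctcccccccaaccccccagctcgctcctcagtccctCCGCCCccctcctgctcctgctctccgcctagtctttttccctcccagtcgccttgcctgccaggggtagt
Thbs2: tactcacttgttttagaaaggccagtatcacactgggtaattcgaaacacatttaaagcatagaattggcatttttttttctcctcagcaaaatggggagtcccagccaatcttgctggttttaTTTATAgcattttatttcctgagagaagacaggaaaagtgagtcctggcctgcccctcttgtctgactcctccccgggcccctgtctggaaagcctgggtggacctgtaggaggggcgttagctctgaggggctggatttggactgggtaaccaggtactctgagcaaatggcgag

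The motifs searched were the TATA box (TATAAA, in 13.6% of 32851 promoter windows of the same length), the AP-1 site (TGANTCA, in 7.81%), the TEAD site (GGAATG, in 14.7%), the GC box (GGGCGG, in 35.7%) and the CArG box of serum response factor (in 1.63%). The Postn window shown held the TATA letters at its bases 225 to 230, and a further Postn window, chr3:54359017-54359316, held none of the motifs. The Thbs3 window held the GC box letters on the opposite strand at bases 230 to 235 and no TATA letters. The Thbs2 window held the TATA letters on the opposite strand at bases 125 to 130. None of these matches overlapped another, and none of the 3 windows shown held the AP-1, TEAD or CArG letters. A match is a description of the letters and not evidence of a site.

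Nov, Wisp1 and Wisp2 belong to the CCN family of secreted proteins that bind integrins and growth factors, and Nov is known as an inhibitor of smooth muscle proliferation. Nov (NCBI Gene 18133, chromosome 15 from 54745702 to 54754039, plus strand) was measured at 3.62, 92.2 and 79.8 FPKM in the Smyd2 fl/fl libraries, against 73.9, 98.4 and 131 FPKM in the Smyd2 SMC-/- libraries. Smyd2 fl/fl replicate 1 was far below the other 5 libraries, with about 187 fragments by the estimated depth where the others had about 3573 to 7031. Pair by pair Nov was 20.4-fold, 1.07-fold and 1.64-fold higher in Smyd2 SMC-/-. The difference was 1.61 (standard error 1.12, limma's adjusted p = 0.489), and 0.20 without Smyd2 fl/fl replicate 1. Replicates 2 and 3 alone gave 0.40 (limma's adjusted p = 0.092).

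Wisp1 (NCBI Gene 22402, chromosome 15 from 66891320 to 66923201, plus strand) had the smallest standard error of the 10 genes. It was measured at 28.9, 27.6 and 29.4 FPKM in the Smyd2 fl/fl libraries, against 31.3, 30.7 and 23.5 FPKM in the Smyd2 SMC-/- libraries. The groups overlapped, and the difference was −0.02 (standard error 0.145, limma's adjusted p = 0.965), turning to 0.10 after rescaling to TPM and to 0.015 after quantile normalization. Replicates 2 and 3 alone gave −0.083 (adjusted p = 0.681). Wisp2 (NCBI Gene 22403, chromosome 2 from 163820861 to 163833146, plus strand) was measured at 13.3, 55.5 and 55.9 FPKM in the Smyd2 fl/fl libraries, against 18.2, 64.2 and 50.4 FPKM in the Smyd2 SMC-/- libraries. Replicate 1 was low in both groups by a similar amount, and the groups overlapped. The difference of Wisp2 was 0.16 (standard error 0.674, limma's adjusted p = 0.931), or 0.030 in replicates 2 and 3 alone (adjusted p = 0.885).

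**Figure D3:**
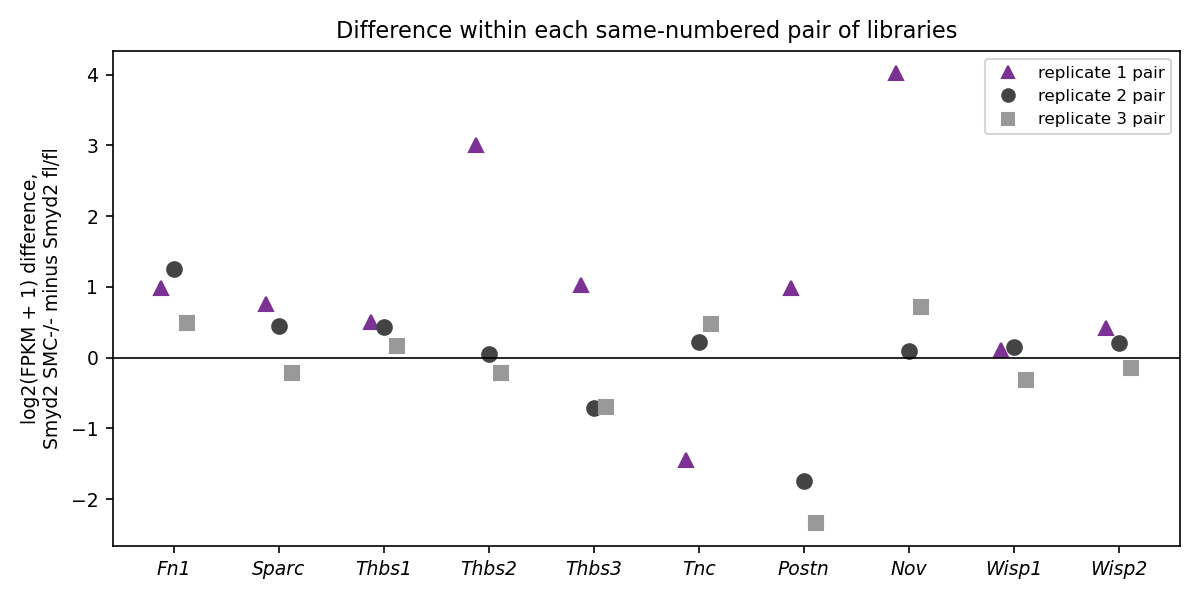
Log2(FPKM + 1) difference, Smyd2 SMC-/- minus Smyd2 fl/fl, within each same-numbered pair of libraries for the 10 matricellular genes. Pairs 2 and 3 lie on the same side of 0 for Fn1, Thbs1, Thbs3, Tnc, Postn and Nov, and pair 1 lies on the opposite side from both for Thbs3, Tnc and Postn.

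Other genes of the same and closely related families were read from the same fit, with all tested genes as the background of each list: 1.21% lower and 1.23% higher with all libraries, 5.72% and 4.72% with the replicate block, and 17.2% and 11.9% in replicates 2 and 3 alone. Of 17 listed genes 9 were tested, the rest being too low or not analysed here, and 0 were called lower and 1 higher, or 1 lower and 3 higher with the replicate block and 3 lower and 5 higher in replicates 2 and 3 alone. Smoc2, a calcium-binding relative of Sparc, was the gene called without the block. It was measured at 6.46, 4.02 and 3.19 FPKM in the Smyd2 fl/fl libraries, against 25.0, 29.7 and 72.1 FPKM in the Smyd2 SMC-/- libraries, with no overlap. The difference was 2.85 (standard error 0.422, limma's adjusted p = 0.027). The call was lost without Smyd2 fl/fl replicate 2 or 3 (adjusted p = 0.13 and 0.126) and without Smyd2 SMC-/- replicate 2 or 3 (0.0979 and 0.0549), with the difference between 2.39 and 3.14 over the 6 libraries left out in turn.

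The relatives called with the replicate block, but not with all libraries and no block, were Smoc1, Spp1 and Tnxb. Smoc1, the paralog of Smoc2, was measured at 20.2, 66.9 and 56.8 FPKM in the Smyd2 fl/fl libraries, against 81.2, 148 and 176 FPKM in the Smyd2 SMC-/- libraries, again without overlap. Its difference was 1.57 (limma's adjusted p = 0.151, or 0.0177 with the block, and 0.000426 to 0.405 over the alternatives). Spp1, which encodes osteopontin, an integrin ligand made by synthetic VSMCs, was measured at 136, 12.6 and 9.35 FPKM in the Smyd2 fl/fl libraries, against 352, 31.4 and 24.8 FPKM in the Smyd2 SMC-/- libraries. Replicate 1 was more than 10-fold above the others in each group. Within pairs the ratios were 2.59, 2.49 and 2.66, and their closeness depends on the match of replicates 2 and 3, which rests on the labels alone. The difference of Spp1 was 1.31 (limma's adjusted p = 0.649, or 0.00662 with the block, and 0.0018 to 0.961 over the alternatives). With 1 library left out it ranged from 0.11 (without Smyd2 SMC-/- replicate 1) to 2.49 (without Smyd2 fl/fl replicate 1). Tnxb, a tenascin of loose connective tissue, was lower in each pair, with a difference of −0.99 (limma's adjusted p = 0.226, or 0.0296 with the block, and 0.00895 to 0.463 over the alternatives), or −0.66 without Smyd2 SMC-/- replicate 1.

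Among the abundant relatives, Cyr61 and Ctgf belong to the CCN family, as Nov, Wisp1 and Wisp2 do. Cyr61 had 286, 220.1 and 204 FPKM in the Smyd2 fl/fl libraries, against 313, 368 and 387 FPKM in the Smyd2 SMC-/- libraries, with a difference of 0.60 (limma's adjusted p = 0.125, or 0.0932 with the replicate block). Its groups did not overlap, and it was called with a block for replicate 1 alone (adjusted p = 0.0439) and in replicates 2 and 3 alone (0.83, adjusted p = 0.00222). Ctgf had 138, 162 and 147 FPKM in the Smyd2 fl/fl libraries, against 19.8, 388 and 327 FPKM in the Smyd2 SMC-/- libraries. Like Tnc, it was below the Smyd2 fl/fl libraries in Smyd2 SMC-/- replicate 1 and above them in replicates 2 and 3. Its difference was −0.11 (limma's adjusted p = 0.969) with all libraries, 0.0035 after rescaling to TPM, 1.26 without Smyd2 SMC-/- replicate 1 (adjusted p = 0.0145) and 1.20 in replicates 2 and 3 alone (adjusted p = 0.000743). Fstl1, a follistatin-like relative of Sparc, had a difference of −0.25 (limma's adjusted p = 0.747), and of −0.50 in replicates 2 and 3 alone (adjusted p = 0.0387), with −0.63 to −0.043 over the libraries left out in turn.

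Receptors of these proteins showed no call with all libraries and no block. Of 19 listed receptors 13 were tested, with 0 lower and 0 higher, or 2 lower and 0 higher with the replicate block and 5 lower and 4 higher in replicates 2 and 3 alone. In that last fit the 4 higher were Itgav, Sdc1, Sdc4 and Egfr, with differences of 0.38, 0.51, 0.53 and 0.49. The 5 lower were Itgb3, Itgb5, Itga5, Cd47 and Notch1. Itgb3, the integrin chain that pairs with Itgav to bind periostin, osteopontin and thrombospondins, had 3.94, 4.44 and 4.69 FPKM in the Smyd2 fl/fl libraries, against 2.02, 2.73 and 2.18 FPKM in the Smyd2 SMC-/- libraries. The groups did not overlap, and the difference was −0.70 (limma's adjusted p = 0.0793, or 0.0456 with the block, and 0.0108 to 0.283 over the alternatives). Cd47, the receptor of Thbs1, had 18.9, 42.3 and 45.6 FPKM in the Smyd2 fl/fl libraries, against 13.4, 22.8 and 25.6 FPKM in the Smyd2 SMC-/- libraries. It was lower in all 3 pairs while its groups overlapped, with a difference of −0.71 (limma's adjusted p = 0.362, or 0.0327 with the block, and 0.00137 to 0.647 over the alternatives), or −1.11 without Smyd2 fl/fl replicate 1 and −0.44 without Smyd2 SMC-/- replicate 1. The abundant receptor genes Itgb1, Itgb5, Lrp1 and Calr had differences of 0.03, −0.38, −0.30 and 0.06, none of them called with or without the replicate block. The difference of Lrp1 was −0.18 after rescaling to TPM and also −0.18 in replicates 2 and 3 alone. Itgb5 was called in replicates 2 and 3 alone (−0.34, adjusted p = 0.0371) and with a block for replicate 1 alone (adjusted p = 0.0296), and its groups did not overlap.

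Genes of latent TGF-beta, which thrombospondins and integrins release, were 9 of 9 tested. None was called without the block (0 lower and 0 higher), 0 lower and 4 higher were called with it, and 0 lower and 6 higher in replicates 2 and 3 alone. The shares of all genes called higher in these fits were 4.72% and 11.9%. Over all libraries the median difference was 0.44, against −0.018 for all tested genes. Tgfb2, a TGF-beta ligand, had 24.9, 18.7 and 19.5 FPKM in the Smyd2 fl/fl libraries, against 44.8, 65.5 and 38.1 FPKM in the Smyd2 SMC-/- libraries, without overlap. Its difference was 1.17 (limma's adjusted p = 0.0553, or 0.0369 with the block, and 0.0154 to 0.197 over the alternatives), and it was called after rescaling to TPM (adjusted p = 0.0414) and after quantile normalization (0.0483). Ltbp1, which tethers latent TGF-beta to fibronectin, had 103, 120.1 and 125 FPKM in the Smyd2 fl/fl libraries, against 143, 268 and 237 FPKM in the Smyd2 SMC-/- libraries, also without overlap. Its difference was 0.84 (limma's adjusted p = 0.128, or 0.0404 with the block, and 0.000899 to 0.372 over the alternatives).

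Ltbp4 and the receptor gene Tgfbr2 were the others called with the block. Ltbp4 had a difference of 0.83 (limma's adjusted p = 0.659, or 0.0253 with the block, and 0.00191 to 0.998 over the alternatives) and Tgfbr2 of 0.45 (limma's adjusted p = 0.71, or 0.0458 with the block, and 0.016 to 0.959 over the alternatives). Both were higher in all 3 pairs, and both were low in replicate 1 of each group, as Fn1 was. Without Smyd2 fl/fl replicate 1 the differences of Ltbp4 and Tgfbr2 were 0.0041 and −0.056, and without Smyd2 SMC-/- replicate 1 they were 1.56 and 0.92. Ltbp3 had a difference of −0.18 (limma's adjusted p = 0.662), or −0.0053 without Smyd2 SMC-/- replicate 1.

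Matrix proteins and enzymes that matricellular proteins bind were 9 of 10 tested, with a median difference of 0.44. None was called without the block (0 lower and 0 higher), with 0 lower and 2 higher with it and 2 lower and 2 higher in replicates 2 and 3 alone. Lox, the collagen-crosslinking enzyme that fibronectin and periostin help to activate, had 82.6, 327 and 315 FPKM in the Smyd2 fl/fl libraries, against 347, 1075 and 984 FPKM in the Smyd2 SMC-/- libraries. Replicate 1 was low in each group, the groups did not overlap, and the pair ratios were 4.2, 3.29 and 3.12. The difference of Lox was 1.80 (limma's adjusted p = 0.199, or 0.00662 with the block, and 0.000124 to 0.479 over the alternatives), or 1.15 without Smyd2 fl/fl replicate 1. Bmp1, a protease that processes procollagen and pro-Lox, had a difference of 0.44 (limma's adjusted p = 0.168, or 0.0485 with the block, and 0.0184 to 0.399 over the alternatives).

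Among the fibrillar collagen genes, Col1a1 had 362, 444 and 491 FPKM in the Smyd2 fl/fl libraries, against 1333, 831 and 522 FPKM in the Smyd2 SMC-/- libraries. The groups did not overlap for Col1a1 or for Col1a2, and both had a difference of 0.96 (limma's adjusted p = 0.186 for each), which was 0.49 and 0.43 in replicates 2 and 3 alone (adjusted p = 0.133 for each). Without Smyd2 SMC-/- replicate 1 the difference of Col1a1 was 0.62. Col3a1 had 13.5, 231 and 225 FPKM in the Smyd2 fl/fl libraries, against 62.8, 147 and 85.6 FPKM in the Smyd2 SMC-/- libraries. It was low in replicate 1 of both groups, and its difference of 0.03 (limma's adjusted p = 0.991) became −1.02 in replicates 2 and 3 alone (adjusted p = 0.0279).

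**Figure D4:**
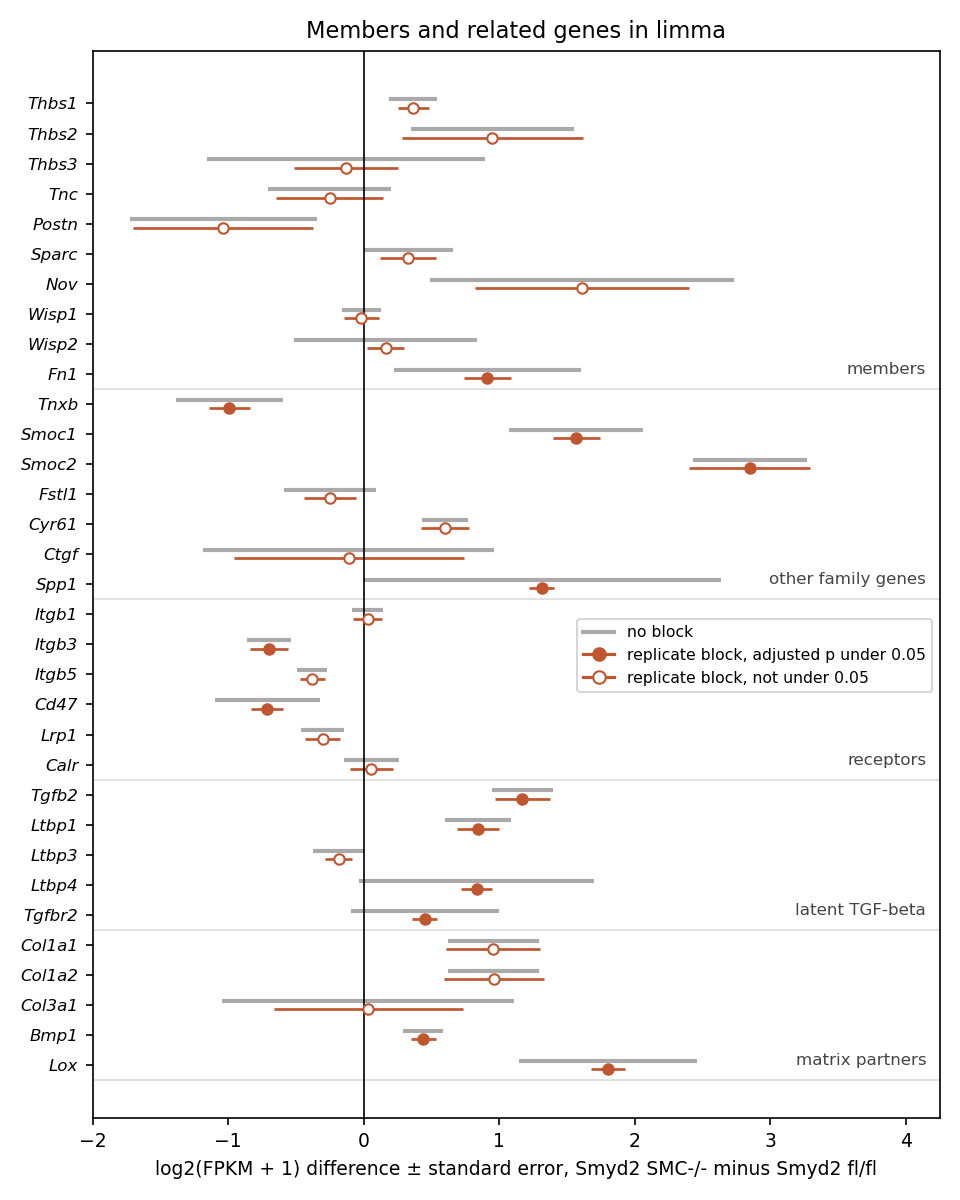
Log2(FPKM + 1) difference, Smyd2 SMC-/- minus Smyd2 fl/fl, of the 10 matricellular genes (members) and of the named genes of the related lists, with grey bars for the standard error without a block and orange bars for that with the replicate block, both around the same estimate. Filled points mark a limma adjusted p under 0.05 with the block, which of the 10 matricellular genes only Fn1 reached.

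Markers of cell types were read beside these genes, because fibroblasts of the adventitia also express fibronectin, periostin and other matrix genes. Of all tested genes, 1.21% were called lower and 1.23% higher with all libraries. These shares were 5.72% and 4.72% with the replicate block, and 17.2% and 11.9% in replicates 2 and 3 alone. By the methods of the study, the adventitia was stripped off after a short digestion, and each batch of cells was above 95% positive for smooth muscle α-actin. Of 12 smooth muscle genes 8 were tested, 1 was called lower (Acta2) and 0 higher, and Myh11, Des, Myocd and Synpo2 were below 0.5 FPKM in every library. The summed FPKM of the list was 1029.6, 884 and 875 in the Smyd2 fl/fl libraries, against 298, 492 and 443 in the Smyd2 SMC-/- libraries, and Acta2 was its most abundant gene. Without Acta2 the sums were 268, 202 and 192 FPKM in the Smyd2 fl/fl libraries, against 97.1, 224 and 180 FPKM in the Smyd2 SMC-/- libraries. In replicates 2 and 3 alone 2 smooth muscle genes were called lower (Acta2 and Actg2) and 2 higher (Lmod1 and Mylk), with a median difference of −0.04, where with all libraries the median was −0.73 and 6 of the 8 lay below 0. Of 10 fibroblast genes 9 were tested and none was below 0.5 FPKM in every library. The fibroblast list summed to 307, 947 and 815 FPKM in the Smyd2 fl/fl libraries, against 146, 736 and 718 FPKM in the Smyd2 SMC-/- libraries, with Dcn its most abundant gene. Without Dcn the sums were 294, 636 and 558 FPKM in the Smyd2 fl/fl libraries, against 121, 353 and 367 FPKM in the Smyd2 SMC-/- libraries. In each group the sum of the fibroblast list was lowest in replicate 1, with or without Dcn. Fn1, Wisp2, Thbs1, Sparc and Nov were also lowest in replicate 1 of each group, while Thbs3 was highest there. Postn and Thbs2 were lowest in replicate 1 of Smyd2 fl/fl but highest in replicate 1 of Smyd2 SMC-/-. Tnc was the reverse, and Wisp1 was lowest in replicate 1 of neither group. The share of all tested genes lowest in replicate 1 of each group was not counted. Of the tested fibroblast genes, only Dpt was highest in replicate 1 of both groups, and Pdgfra was highest in that of Smyd2 SMC-/- only.

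Within the fibroblast list 1 gene was called lower, Dpt, and 0 higher, beside 1.21% and 1.23% of all tested genes. With the replicate block 3 were called lower and 1 higher, beside 5.72% and 4.72%. Dpt, which encodes dermatopontin, had 144, 90.3 and 65.5 FPKM in the Smyd2 fl/fl libraries, against 3.31, 1.15 and 0.63 FPKM in the Smyd2 SMC-/- libraries (difference −5.28, limma's adjusted p = 0.00417). Col14a1 went the other way, with 6.49, 24.7 and 26.8 FPKM in the Smyd2 fl/fl libraries, against 64.8, 160 and 197 FPKM in the Smyd2 SMC-/- libraries, without overlap (difference 2.87, limma's adjusted p = 0.0683, or 0.0032 with the block). The others called lower with the block were Ly6a (−1.09, adjusted p = 0.0404) and Cd34 (−2.85, adjusted p = 0.0269), and Pdgfra was lower without overlap (−1.66, adjusted p = 0.0584 with the block) and was called in replicates 2 and 3 alone (−2.21, adjusted p = 0.00012) and with a block for replicate 1 alone (adjusted p = 0.0283). Replicates 2 and 3 alone gave 5 fibroblast genes lower and 2 higher, beside 17.2% and 11.9% of all tested genes. Of the 9 tested fibroblast genes 5 were lower in all 3 pairs (Pdgfra, Dpt, Pi16, Ly6a and Cd34) and 3 higher (Lum, Dcn and Col14a1). Of all tested genes, 29.3% were lower and 25.8% higher in all 3 pairs. Of 10 endothelial genes 1 was tested, Cdh5, Tek, Vwf, Emcn, Erg and Tie1 were below 0.5 FPKM in every library, and the list summed to at most 5.64 FPKM in a library, with Kdr the most abundant. The groups did not overlap for Kdr, with 0.47, 0.58 and 0.84 FPKM against 0.96, 5.15 and 2.96 FPKM in Smyd2 SMC-/- (difference 1.16, limma's adjusted p = 0.186, and 1.53 with adjusted p = 0.0026 in replicates 2 and 3 alone), or for Pecam1, which was too low to be tested and went the other way, with 0.56, 0.88 and 0.92 FPKM against 0.12, 0.18 and 0.00 FPKM. Of 8 macrophage genes 4 were tested, Ptprc, Adgre1, Aif1 and Mrc1 were below 0.5 FPKM in every library, and the sum lay between 18.4 and 42.7 FPKM, with Cd14 the most abundant. Csf1r was higher in Smyd2 SMC-/- without overlap, with 0.58, 0.53 and 0.48 FPKM against 1.66, 1.42 and 1.14 FPKM (difference 0.65, limma's adjusted p = 0.102). The other 3 tested macrophage genes had differences below 0, Lyz2 (−0.64), Cd14 (−0.40) and Cd68 (−0.0040), and the median of the 4 was −0.20. Lyz2 and Cd14 were lower in all 3 pairs. Lyz2 was called lower in replicates 2 and 3 alone (−0.95, adjusted p = 0.00294) and Csf1r higher (0.60, adjusted p = 0.0192). Among 5 adipocyte genes only Fabp4 was tested, and it had 119 FPKM in Smyd2 SMC-/- replicate 1 against 3.12 to 6.19 FPKM elsewhere, with Adipoq, Plin1 and Cidec below 0.5 FPKM in every library. The part of the smooth muscle and fibroblast levels in the results on matricellular genes was not tested.

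Of the 6616 tested genes that averaged 10 FPKM or more, the 3 whose log2(FPKM + 1) values over the 6 libraries were most like those of Thbs1 were Gltp, Isg20 and Cxcl15, with Pearson's r of 0.998, 0.996 and 0.991. Gltp, the closest, had 23.6, 38.6 and 39.8 FPKM in the Smyd2 fl/fl libraries, against 42.9, 61.4 and 49.4 FPKM in the Smyd2 SMC-/- libraries, which is the same order of libraries as for Thbs1. The points share their libraries, and with so many genes compared over 6 libraries such values are only a description.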

How the data were processed

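RNA-seq libraries of primary aortic VSMCs were grouped by the sample labels as Smyd2 fl/fl (3) and Smyd2 SMC-/- (3). The authors prepared libraries for paired-end sequencing of 100 bases on the BGISEQ-500 platform, while the labels name another kit. Bowtie2 and RSEM are named in the submitters' processing notes, and versions and genome build are not given in the sources used here. The authors deposited FPKM values, rounded to 2 decimals, and these were used as they stand. Every per-sample column belonged to a sample.

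Genes that averaged 0.5 FPKM or more over the 6 libraries were taken to log2(FPKM + 1) and compared with limma 3.58.1 in R 4.3.3 (trend and robust settings, Benjamini-Hochberg adjustment over 12565 genes), after the fit was tested on simulated data. Tables and plots used Python 3.11.15 with pandas 2.3.3, numpy 2.4.6 and matplotlib 3.10.9. Depth was estimated from low FPKM values of genes with 1 transcript, with 75 bases taken from each length. Of 4343 such genes, 454 to 555 gave a usable value in a library. Of the values used, 68.1% to 69.5% were whole fragments to within 0.15 (30% expected from evenly spread values). The depth chosen was the one that best matched whole fragments, which by itself raises this share. The estimates are approximate and cover counting error only. Positions come from GENCODE M21 on GRCm38, since the table has none.

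Replicate numbers come from the labels. Deviations from the group means correlated across genes between same-numbered libraries at 0.61, 0.46 and 0.53 for replicates 1, 2 and 3, all above 0.1, so the numbers were taken to pair the libraries and the blocked fit is given where it changes a call. Smyd2 fl/fl replicate 2 correlated as well with Smyd2 SMC-/- replicate 3 (0.46), and Smyd2 fl/fl replicate 3 had 0.44 with Smyd2 SMC-/- replicate 2. Deviations cancel out within a group, so a shift shared by replicate 1 alone also gives positive values for replicates 2 and 3. The pairing therefore rests mainly on replicate 1, and the match of replicates 2 and 3 rests on the labels alone.

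Named genes are the 10 matricellular genes, Smyd2, genes of the related lists called with or without the block, up to 4 genes of highest mean FPKM in each of these lists, and the 3 genes most like the member with the smallest p. Receptors listed only for a call in replicates 2 and 3 alone are not counted as named genes. Marker genes are named by level, by a call, by the direction in pairs or by groups without overlap, not all of them are named, and 1 of the marker lists is not reported here. The genes and lists were chosen with earlier results of these data known. Alternatives tried were the replicate block, each library left out, a pseudocount of 0.1, all genes without the FPKM filter, rescaling to TPM, quantile normalization, replicates 2 and 3 alone and a block for replicate 1. The replicate block with 1 pair left out was added after the data were seen.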

Additional observations from a re-analysis of the deposited data

How the results depend on the processing

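The 13 alternatives gave 442 values for 34 of the named genes, of which 24 changed direction, in 11 genes. The genes most like Thbs1 were not put through them. Thbs1, Postn, Nov and Fn1 kept their direction in all 13. Calls of members depended on how replicate 1 was treated: the cause was not tested. With the replicate block 1 was higher (Fn1), with 719 genes lower and 593 higher in all, and with a block for replicate 1 alone 1 was higher, with 1398 and 1152 in all. In replicates 2 and 3 alone 2 members were lower and 1 higher, with 2156 and 1494 genes in all. With the block and both libraries of pair 1 left out, Fn1 had a difference of 0.87 (limma's adjusted p = 0.0282). After rescaling to TPM 99 genes were lower and 247 higher. Among these 34 genes, the block changed no call other than those given with its value.

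With each library left out in turn, members called lower ranged from 0 to 1 (Postn, without Smyd2 SMC-/- replicate 1) and members called higher stayed at 0. All genes called ranged from 16 to 313 lower and from 16 to 373 higher. Differences that changed sign among these ranged from −1.30 to 0.47 for Thbs3, −0.60 to 0.31 for Tnc, −0.0050 to 0.50 for Sparc, −0.089 to 0.11 for Wisp1, −0.50 to 0.69 for Wisp2, −0.86 to 1.26 for Ctgf, −0.0051 to 0.076 for Itgb1, −0.11 to 0.26 for Calr, −0.056 to 0.92 for Tgfbr2 and −1.29 to 0.71 for Col3a1. In replicates 2 and 3 alone the sign changed for Thbs2 (−0.082), Tnc (0.34), Ctgf (1.20) and Col3a1 (−1.02). After rescaling to TPM it changed for Wisp1 (0.10) and Ctgf (0.0035), and after quantile normalization for Wisp1 (0.015).

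The lowest value of a member was 3.10 FPKM (Postn), and a limit set by depth was not tested. A fit without a library assumes that the remaining libraries of its group vary like the others.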

Other observations

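Tgfbi, the closest relative of Postn, was named after its values were seen. It was measured at 1.28, 14.5 and 14.4 FPKM in the Smyd2 fl/fl libraries, against 4.33, 0.75 and 1.32 FPKM in the Smyd2 SMC-/- libraries. Like Postn, it was higher in the Smyd2 SMC-/- library of pair 1 and lower in those of pairs 2 and 3. The difference was −1.55 (limma's adjusted p = 0.35), and −2.94 in replicates 2 and 3 alone (adjusted p = 3.2e-05).

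Tnn, another tenascin named after its values were seen, had 10.1 FPKM in Smyd2 fl/fl replicate 1 and 0.73 FPKM in Smyd2 SMC-/- replicate 1, and at most 0.07 FPKM in the other 4 libraries.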
